A study of Homo sapiens with 12 samples.

Results

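The 41 genes described here encode proteins of the DNA replication origin and fork. They were taken by symbol from FPKM tables (fragments per kilobase of transcript, scaled to the number of mapped fragments) that list 26372 gene symbols, and all 41 were found and stood at 1 FPKM or more in every group. The cells were HCT116, a human colorectal carcinoma line, with a knockout of KDM3A (KO), a demethylase of histone H3, or wild type (WT). Each genotype was sampled in mock culture (normal medium), after starvation (medium without serum) and after refeeding, in which fetal bovine serum was put back after 24 h without it. The labels list 12 samples, 2 in each of 6 groups. They do not say whether the knockout was 1 clone, how long the starved cells went without serum, or when refed cells were harvested. The tables hold 1 value per group, so no spread between replicates could be estimated. Differences in bulk RNA cannot tell fewer cycling cells from less RNA per cell.

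Replication begins when the origin recognition complex, CDC6 and CDT1 load the ring of MCM2 to MCM7 onto DNA in G1, a step called licensing. In S phase CDC45 and the GINS complex join the ring and turn it into the moving helicase, primase and the polymerases copy the strands, and the sliding clamp PCNA, placed by the RFC complex, keeps polymerases on DNA. Many of these genes are transcribed around the G1 to S transition under E2F factors, which are restrained by RB proteins in cells that lack growth signals.

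The KO libraries held 3.15 (mock), 3.01 (starved) and 3.59 FPKM (refed) of KDM3A, against 41.3, 17.8 and 19.8 FPKM in the same states of WT. Of 10 epithelial markers 9 were at 1 FPKM or more in every group, and VIL1 was not. WT mock stood apart: all 16 endothelial markers were at 1 FPKM or more there, 15 of them at least 2-fold above every other group, and 14 were below 1 FPKM in each of the others. Their summed level was 298 FPKM in WT mock and 49.0 to 90.2 FPKM elsewhere. Short RNA stood apart there as well. Summed over all features, WT mock held 1149310 FPKM with short RNA and 522070 FPKM without it. The other groups held 481036 to 629410 FPKM with it and 444307 to 593605 FPKM without it. The 203 features that exceeded each of the remaining groups by 4-fold or more in WT mock, short RNA left aside, included none of the 41. The part of the endothelial transcripts and of short RNA in the results was not tested. The counts of called replication genes are also given without WT mock.

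Differences are of log2(FPKM + 1) on the deposited scale. For averages over genotypes or states, limma fitted both factors to the 6 values of the 13456 features that reached 1 FPKM anywhere. "Rose" and "fell" mean a Benjamini-Hochberg adjusted p under 0.05 in that fit. Its 2 residual degrees of freedom are the interaction of genotype and state, so its p shows evenness of a difference and not replicate error. Single pairs of groups have no test. Levels on the deposited scale shifted between groups for all features together. The median of all features was -0.06 in KO and -0.19 in WT for starved minus mock, and 0.07, 0.19 and 0.22 for KO minus WT in mock, starved and refed cells.

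Starved cells had more RNA of the MCM helicase than mock cells in both genotypes. All 6 subunits of the ring rose, where 5.83% of all features rose. The summed level of the 6 was 338 FPKM in KO starved and 199 FPKM in KO mock. In WT it was 291 FPKM in starved and 174 FPKM in mock cells. MCM5 was at 24.0, 50.7 and 49.8 FPKM in mock, starved and refed KO cells and at 19.3, 45.8 and 46.4 FPKM in the same states of WT. Both mock values lay below all 4 starved and refed values. Averaged over genotypes MCM5 was higher in starved cells by 1.13 on the log2 scale (SE 0.09, limma adjusted p = 0.0170).

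MCM4 was at 18.4, 34.4 and 33.6 FPKM in mock, starved and refed KO cells and at 12.4, 24.6 and 26.9 FPKM in WT (starved minus mock log2 0.90, SE 0.09, limma adjusted p = 0.0170). MCM2 was at 27.3, 45.1 and 43.6 FPKM in KO and 15.5, 32.2 and 32.7 FPKM in WT (log2 0.86, SE 0.12, limma adjusted p = 0.0190). For both genes the 2 mock values were the lowest within their genotype, and KO mock lay below WT starved. MCM3 was at 31.4, 57.2 and 55.9 FPKM in KO and 29.4, 50.6 and 50.5 FPKM in WT (log2 0.80). MCM6, at 13.6, 23.9 and 23.5 FPKM in KO and 14.4, 21.7 and 23.0 FPKM in WT, had log2 0.67. MCM7 had the smallest difference of the ring, log2 0.53, and the highest level, at 83.9, 126 and 128 FPKM in KO and 82.9, 116 and 119.8 FPKM in WT.

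The ring holds equal numbers of its 6 subunits, whereas their transcripts were unequal per length in every group. MCM7 made up 37.4% to 47.7% of the summed FPKM of the 6 and MCM6 6.86% to 8.27%. MCM7 was 5.21 to 6.15 times MCM6, while the highest of MCM2 to MCM6 was at most 2.39 times the lowest in any group. MCM5 was 15.0% of the ring in KO starved and 12.1% in KO mock, and 15.8% in WT starved and 11.1% in WT mock.

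**Figure D1:**
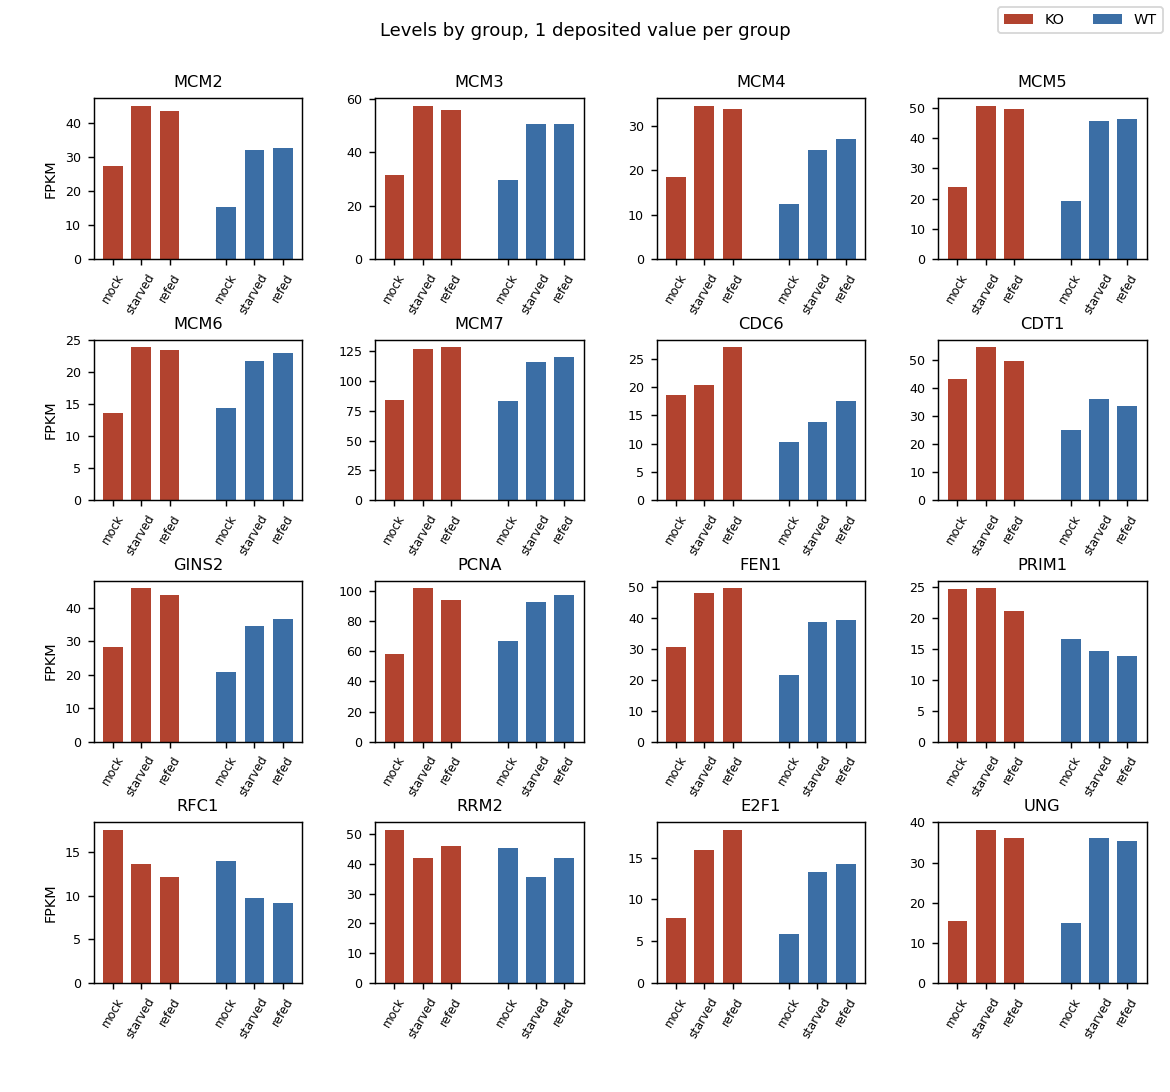
FPKM of 16 replication genes (vertical axes, starting at 0) in mock, starved and refed cells of KO (left in each panel) and WT (right), 1 deposited value per bar and no error bars. The MCM subunits, GINS2, PCNA, FEN1, E2F1 and UNG stand lower in mock than in starved and refed cells of both genotypes, whereas RFC1 and RRM2 stand highest in mock within each genotype.

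E2F1, the activating E2F factor of G1 and S phase, and UNG, a uracil-DNA glycosylase that removes uracil from newly made DNA, were among the largest rises. UNG was at 15.5, 38.2 and 36.1 FPKM in mock, starved and refed KO cells and at 15.0, 36.1 and 35.5 FPKM in WT. The values of the 2 genotypes were nearly the same in each state. Its starved minus mock difference was the largest of the 41 genes (log2 1.23, SE 0.07, limma adjusted p = 0.0170). E2F1 was at 7.72, 16.0 and 18.4 FPKM in KO and 5.86, 13.3 and 14.3 FPKM in WT (log2 1.01, SE 0.07, limma adjusted p = 0.0170). Both mock values of E2F1 lay below every starved and refed value.

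Of the 41 genes 16 rose (39.0%) and 3 fell (7.32%) in starved cells, where 5.83% of all features rose and 19.4% fell. Their median was 0.22, against -0.13 for all features. After median-ratio rescaling, which removes the shift of all features, 18 rose and 1 fell, where 15.0% of all features rose and 14.9% fell. Without WT mock the fit called 0 of the 41, where 0.0372% of all features rose and 0.134% fell. The mock level then rests on KO mock alone. Within KO the levels above show the same direction for all 6 MCM subunits, E2F1 and UNG.

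Folds between single pairs are counted on FPKM + 1, which lowers them slightly. On that scale 2 of 41 genes, MCM5 and UNG, were at least 2-fold higher in KO starved than in KO mock (0.951% of all features). E2F1 lay just below (log2 0.96), although its FPKM themselves differed 2.07-fold. In WT these were 4 (1.03% of all features), MCM2, MCM5, E2F1 and UNG. None of the 41 was at least 2-fold lower in either genotype, where 1.18% and 3.91% of all features were lower in KO and WT. At 1.5-fold on FPKM + 1 the higher genes were 10 in KO (3.49% of all features) and 8 in WT (3.14%).

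**Figure D2:**
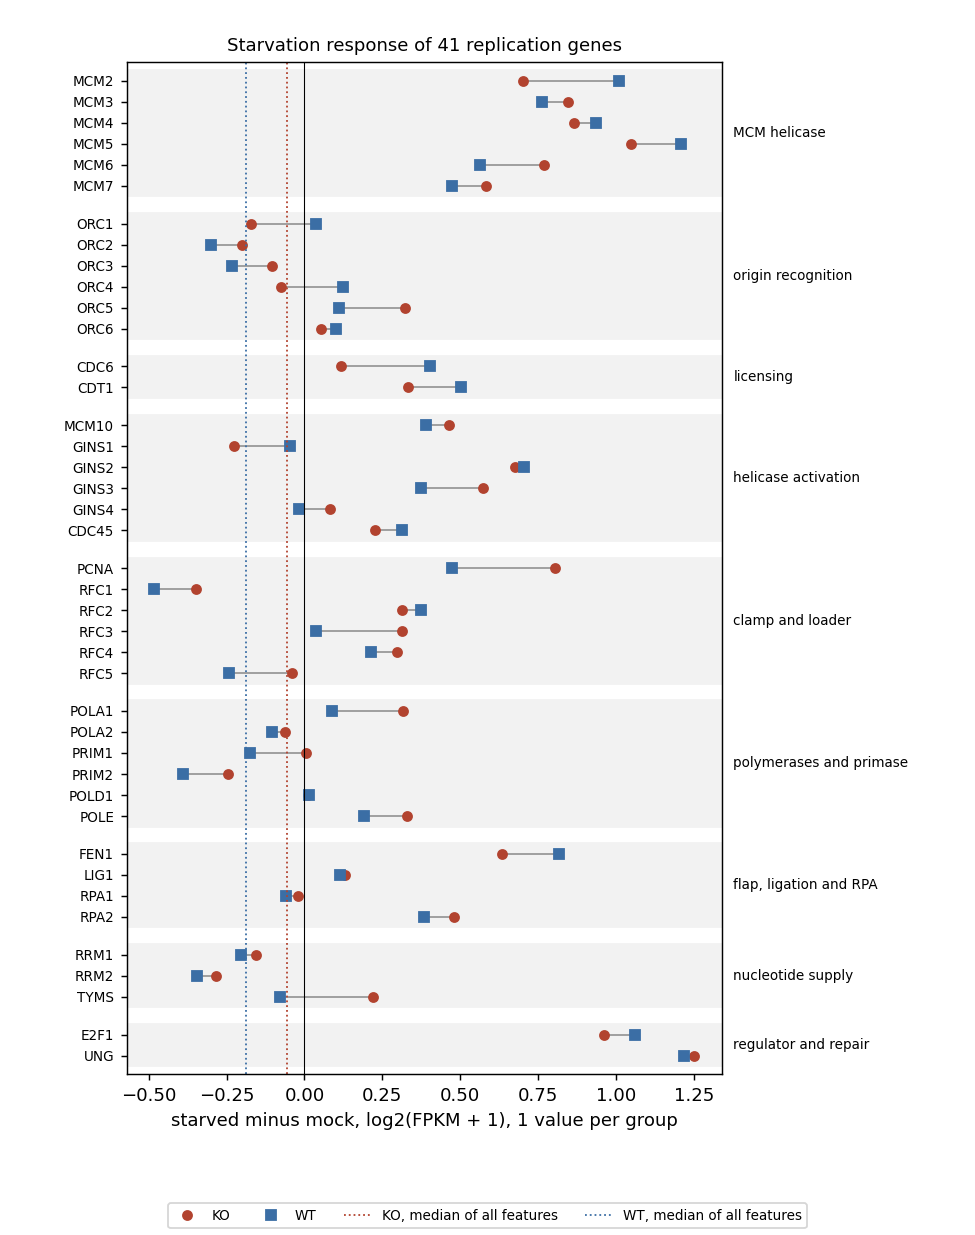
Starved minus mock difference of log2(FPKM + 1) (horizontal axis) for each of the 41 genes, grouped by role, in KO (circles) and WT (squares), 1 value per group. Dotted lines mark the median of all features (-0.06 in KO and -0.19 in WT), and the MCM subunits, GINS2, PCNA, FEN1, E2F1 and UNG lie to the right in both genotypes.

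Promoters of several of these genes, not all of which rose, are printed because many replication genes are known to be transcribed under E2F factors. The part of E2F factors in the differences given here was not tested. The search covered 250 bases before to 50 bases after each annotated start in the RefSeq promoter table of build GRCh38.p14, which differs from the hg19 build of the authors' alignment. TTTGGCGC, TTTCGCGC, TTTCCCGC, TTTGGCGG, TTTCCCGG and TTTCGCGG were searched on both strands. Of the 41 genes 37 had a promoter in the table, and 22 of these (59.5%) held at least 1 match. Over all 27305 genes with a promoter 6.21% held a match, and of the 9704 that matched a feature at 1 FPKM or more 10.8% did. The windows run from base -80 to base 10 around the start (base -160 to base -71 for MCM6). Capitals mark matches that lie wholly inside the window. A further match of CDC6, TTTGGCGC, begins at base 8, runs past the end of its window and is left in lower case. E2F1 lies at chr20:33686376-33686465 (minus strand), MCM3 at chr6:52284733-52284822 (minus), MCM7 at chr7:100101388-100101477 (minus), MCM6 at chr2:135876514-135876603 (minus), GINS2 at chr16:85688945-85689034 (minus), PCNA at chr20:5126613-5126702 (minus), UNG at chr12:109098092-109098181 (plus), CDC6 at chr17:40287799-40287888 (plus) and ORC2, shown as a promoter with no match, at chr2:200963651-200963740 (minus).
E2F1: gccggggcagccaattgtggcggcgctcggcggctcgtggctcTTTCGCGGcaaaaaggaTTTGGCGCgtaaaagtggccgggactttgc
MCM3: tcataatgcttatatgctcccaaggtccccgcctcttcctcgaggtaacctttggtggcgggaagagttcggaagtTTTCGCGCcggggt
MCM7: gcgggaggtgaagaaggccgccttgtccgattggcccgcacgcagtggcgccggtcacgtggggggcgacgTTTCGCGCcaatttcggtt
MCM6: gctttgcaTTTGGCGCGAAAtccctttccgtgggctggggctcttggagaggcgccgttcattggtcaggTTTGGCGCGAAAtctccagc
GINS2: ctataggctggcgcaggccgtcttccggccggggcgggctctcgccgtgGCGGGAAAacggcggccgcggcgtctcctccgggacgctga
PCNA: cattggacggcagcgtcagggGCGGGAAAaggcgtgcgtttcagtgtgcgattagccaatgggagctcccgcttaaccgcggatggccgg
UNG: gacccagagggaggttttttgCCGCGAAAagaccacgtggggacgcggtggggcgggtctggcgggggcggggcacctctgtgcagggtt
CDC6: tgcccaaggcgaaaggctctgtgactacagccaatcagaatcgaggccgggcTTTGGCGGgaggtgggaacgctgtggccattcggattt
ORC2: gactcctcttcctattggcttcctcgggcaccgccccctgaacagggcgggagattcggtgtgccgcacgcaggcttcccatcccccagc

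In MCM6 and MCM2, TTTGGCGC or TTTCGCGC on the gene's strand overlaps TTTCGCGC on the other strand, so that each run of capitals in MCM6 holds 2 matches. Of the 33 matches, 23 start within 60 bases of the start site. By role, the matches were in 4 of 4 MCM genes with a promoter in the table, 2 of 2 licensing genes, 5 of 5 helicase activation genes and both E2F1 and UNG, but in 1 of 6 origin recognition genes and 1 of 3 nucleotide supply genes. The median starved minus mock difference was 0.34 over the 22 genes with a match, 11 of which rose. It was -0.04 over the 15 without, 2 of which rose (RFC2 and FEN1), where 5.83% of all features rose. Matches were spread unevenly over the roles, so match and role cannot be told apart here. Genes outside the module were not split by match. RFC1, which has a match, fell, and POLA2, GINS1 and ORC3 had matches and differences of -0.08, -0.14 and -0.17. CCAAT, the letters bound by NF-Y, were in 62.2% of the 37 genes and 39.7% of all genes of the table, with medians of 0.20 in genes with and without it. A match is a run of letters and not a measured site of binding.

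**Figure D3:**
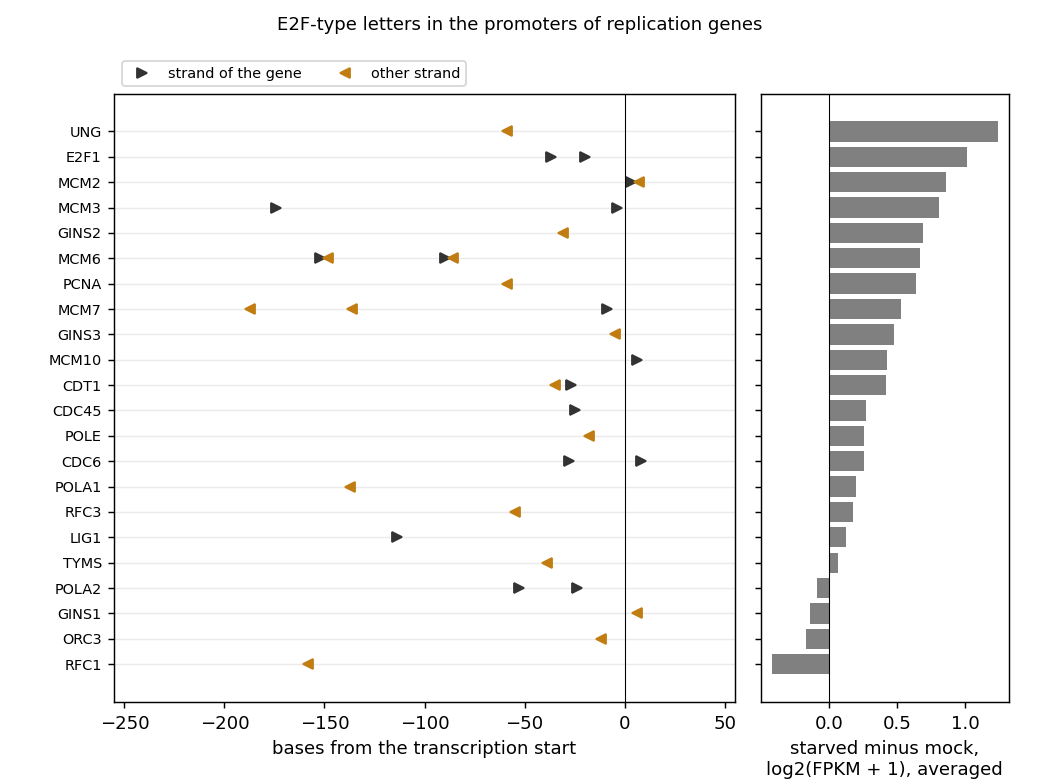
Position of each E2F-type match in bases from the transcription start (left, arrows give the strand) for the 22 genes that hold one, ordered by their averaged starved minus mock difference (right, bars from 0, log2 scale). Matches gather close to the start both in genes with large differences, such as UNG (1.23), and in genes with negative ones, such as ORC3 (-0.17).

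Genes of helicase activation split. GINS2, a subunit of the helicase cofactor GINS, was at 28.2, 45.7 and 43.8 FPKM in mock, starved and refed KO cells and at 20.8, 34.5 and 36.6 FPKM in WT, and rose in starved cells (log2 0.69, SE 0.08, limma adjusted p = 0.0175). GINS3 and MCM10, which helps switch the helicase on, rose as well, by log2 0.47 and 0.43. GINS3 was at 5.01, 7.95 and 7.68 FPKM in KO and 4.63, 6.30 and 6.83 FPKM in WT. The other GINS subunits did not pass the test: GINS1 was at 3.55 to 5.27 FPKM and GINS4 at 3.78 to 4.37 FPKM over the 6 groups. The transcripts of this complex, which holds equal numbers of its subunits, thus spanned 3.55 to 45.7 FPKM. CDC45 was at 13.9, 16.4 and 16.7 FPKM in KO and 8.51, 10.8 and 12.2 FPKM in WT, with a starved minus mock difference of log2 0.27 that did not pass (limma adjusted p = 0.0737).

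The 2 licensing factors differed from each other. CDT1, which brings the MCM ring to origins and is destroyed in S phase, was at 43.1, 54.6 and 49.7 FPKM in mock, starved and refed KO cells and at 25.2, 36.1 and 33.5 FPKM in WT. It rose in starved cells (log2 0.42, SE 0.09, limma adjusted p = 0.0342). CDC6, the ATPase that loads the ring together with the origin recognition complex, was at 18.7, 20.3 and 27.0 FPKM in KO and 10.2, 13.9 and 17.5 FPKM in WT. Its refed value was the highest in each genotype. CDC6 did not pass in starved against mock cells (log2 0.26, limma adjusted p = 0.108) and rose in refed against mock cells (log2 0.61, SE 0.09, limma adjusted p = 0.0179).

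None of the 6 origin recognition genes passed the test in starved cells on the deposited scale, where 5.83% of all features rose and 19.4% fell. ORC1, the subunit whose protein level cycles in human cells, was at 7.92, 6.93 and 6.74 FPKM in mock, starved and refed KO cells and at 4.92, 5.08 and 5.23 FPKM in WT. ORC2, a core subunit, was at 9.49, 8.12 and 8.43 FPKM in KO and 9.36, 7.42 and 7.83 FPKM in WT (log2 -0.25, limma adjusted p = 0.0538). ORC5, another core subunit, lay higher in starved cells without passing, at 7.80, 10.0 and 9.25 FPKM in KO and 8.12, 8.86 and 8.72 FPKM in WT (log2 0.22, limma adjusted p = 0.106). ORC5 did pass after median-ratio rescaling (log2 0.35, limma adjusted p = 0.0222) and after upper-quartile rescaling (log2 0.34, limma adjusted p = 0.0242). ORC3 and ORC4 lay between 6.01 and 12.0 FPKM in all groups, and ORC6 between 10.6 and 15.6 FPKM. The summed level of the 6 was 56.5 FPKM in KO starved and 57.3 FPKM in KO mock, and 47.0 FPKM in WT starved and 48.0 FPKM in WT mock. The origin recognition sum thus changed by about 1 FPKM in each genotype.

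The clamp and its loader also moved unequally. PCNA was at 58.0, 102 and 94.5 FPKM in mock, starved and refed KO cells and at 66.7, 93.1 and 97.6 FPKM in WT, and it rose in starved cells (log2 0.64, SE 0.11, limma adjusted p = 0.0250). RFC1, the large subunit of the clamp loader, was at 17.6, 13.6 and 12.2 FPKM in KO and 14.0, 9.69 and 9.18 FPKM in WT, and it fell (log2 -0.42, SE 0.07, limma adjusted p = 0.0249). RFC2, a small subunit, rose (log2 0.34, limma adjusted p = 0.0371), at 22.5, 28.3 and 29.4 FPKM in KO and 15.6, 20.5 and 22.7 FPKM in WT. RFC3, RFC4 and RFC5 did not pass, with differences of 0.18, 0.25 and -0.14. RFC1 was the only 1 of the 41 called lower in starved cells under each of the scalings tried.

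Of the 6 polymerase and primase genes 0 rose and 1 fell in starved cells on the deposited scale. Among all features 5.83% rose and 19.4% fell, so these counts are near those shares. POLD1, the catalytic subunit of polymerase delta, was at 26.8, 27.0 and 27.0 FPKM in mock, starved and refed KO cells and at 18.8, 19.0 and 18.3 FPKM in WT, the smallest starved minus mock difference of the 41 in size (log2 0.01). POLE, the catalytic subunit of polymerase epsilon, was at 13.8, 17.6 and 19.1 FPKM in KO and 11.2, 12.9 and 14.4 FPKM in WT (log2 0.26, limma adjusted p = 0.0616). PRIM2, the large primase subunit, fell (log2 -0.32, limma adjusted p = 0.0398), at 12.5, 10.4 and 8.98 FPKM in KO and 11.1, 8.20 and 7.81 FPKM in WT. POLA1 and POLA2, subunits of the polymerase that extends primers, lay between 3.05 and 5.88 FPKM in all groups and did not pass. After median-ratio rescaling PRIM2 no longer passed (log2 -0.19, limma adjusted p = 0.0977), while POLE did (log2 0.39, limma adjusted p = 0.0172).

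Among genes of strand maturation, FEN1, the nuclease that trims flaps on the lagging strand, was at 30.7, 48.2 and 49.7 FPKM in mock, starved and refed KO cells and at 21.6, 38.8 and 39.3 FPKM in WT, and rose in starved cells (log2 0.73, SE 0.08, limma adjusted p = 0.0175). LIG1, the ligase that seals the nick after it, was at 16.6 to 21.0 FPKM in all groups and did not pass. RPA2, a subunit of the single-strand binding protein RPA, rose (log2 0.43), at 26.8, 37.8 and 34.7 FPKM in KO and 27.7, 36.5 and 33.1 FPKM in WT. RPA1, its large partner, was at 23.2 to 26.4 FPKM throughout and did not pass.

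Genes of nucleotide supply did not follow the helicase. RRM2, the S phase subunit of ribonucleotide reductase, was at 51.6, 42.2 and 46.1 FPKM in mock, starved and refed KO cells and at 45.6, 35.7 and 42.0 FPKM in WT. The starved value was the lowest in each genotype, and RRM2 fell (log2 -0.31, SE 0.08, limma adjusted p = 0.0462), a call that was lost after median-ratio rescaling (log2 -0.17, limma adjusted p = 0.153). Its partner RRM1 was at 25.5, 22.8 and 22.8 FPKM in KO and 21.0, 18.1 and 20.1 FPKM in WT, and TYMS, thymidylate synthase, was at 39.2 to 50.1 FPKM over the 6 groups. Neither passed. Pseudogenes that can take or give reads are named after RRM2 and TYMS and also after UNG, PCNA, RPA2, FEN1, ORC1, RFC3 and RFC5. TYMS overlaps ENOSF1, MCM7 overlaps AP4M1 and GINS2 overlaps GSE1. PRIM2 overlaps RAB23, RFC5 overlaps WSB2, ORC1 overlaps PRPF38A, ORC3 overlaps AKIRIN2, and ORC4 overlaps ACVR2A and MBD5. The values of all these genes are uncertain to that extent.

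The starvation responses of KO and WT cells come from separate samples and were alike in order. Across the 41 genes Pearson's r was 0.933 and Spearman's rho 0.923, against 0.385 and 0.740 over all 13456 features. Genes are not independent replicates, and the points of a genotype share its mock and starved values. In both genotypes 26 genes were higher in starved cells and 10 lower (63.4% and 24.4%, against 24.7% and 52.9% of all features), and after median-ratio rescaling these were 30 and 5 (73.2% and 12.2%, against 38.7% and 40.4% of all features). The KO response minus the WT response had a median of 0.06 and ran from -0.31 (MCM2) to 0.33 (PCNA). These differences between genotypes have no test, and both use the WT mock value.

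**Figure D4:**
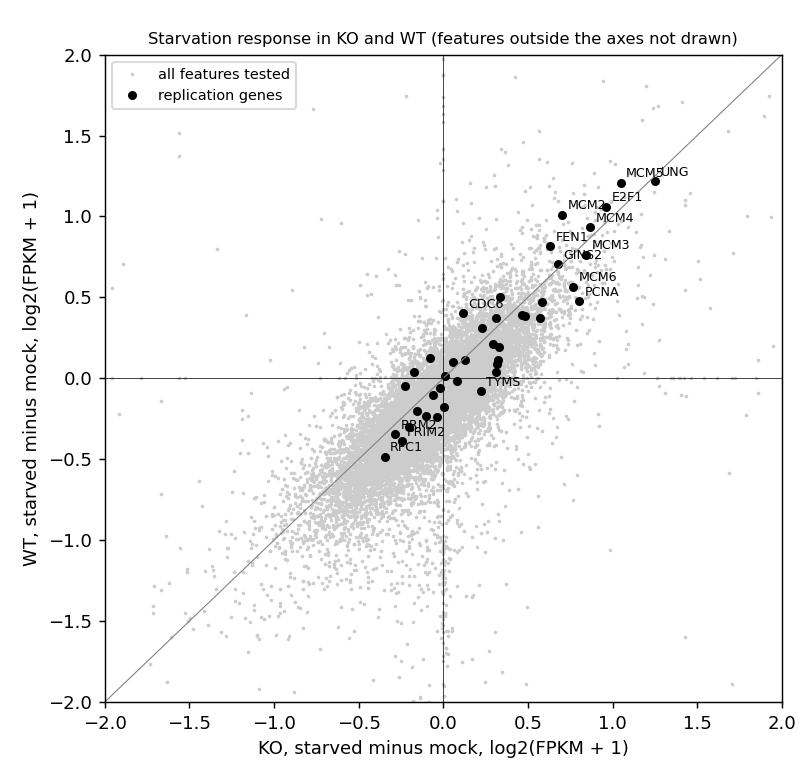
Starved minus mock difference of log2(FPKM + 1) in KO (horizontal axis) against WT (vertical axis) for the 41 replication genes (black) and all features tested (grey), with the line of equal response. The replication genes follow the line, r = 0.933, from RFC1 at the lower left to UNG and MCM5 at the upper right.

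After serum was added back most of these genes stood near their starved levels. Between refed and starved cells 0 of the 41 genes were called by limma, where 0.773% of all features rose and 0.0520% fell. The largest differences were those of CDC6 (log2 0.35, limma adjusted p = 0.318) and MCM10 (log2 0.28, limma adjusted p = 0.320), and neither passed. MCM10 was at 2.89, 4.38 and 5.18 FPKM in mock, starved and refed KO cells and at 2.33, 3.36 and 4.63 FPKM in WT. For the 6 MCM subunits of the ring the refed minus starved difference was between -0.02 and 0.05. No gene differed by 2-fold between refed and starved cells, where in KO 1.98% of all features were higher and 0.446% lower, and in WT 1.69% higher and 0.684% lower. A p that misses the threshold does not show that the states were alike, and the time from serum to harvest is unknown.

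Refed cells were also set against mock cells, a comparison that shares the mock values with starved against mock. Of the 41 genes 18 rose (43.9%, against 8.10% of all features) and 2 fell (4.88%, against 21.2%). UNG had log2 1.18, E2F1 1.15, MCM5 1.13, MCM4 0.95 and MCM2 0.84, with limma adjusted p of 0.00979, 0.00979, 0.0114, 0.0120 and 0.0153. CDC6, CDC45 and POLE rose here, CDC45 by log2 0.36 (limma adjusted p = 0.0369) and POLE by log2 0.39 (limma adjusted p = 0.0246). RFC1 and PRIM2 fell, by log2 -0.53 and -0.44. CDT1 did not pass (log2 0.30, limma adjusted p = 0.0629). After median-ratio rescaling 24 rose and 2 fell, where 17.4% of all features rose and 16.2% fell. Without WT mock 0 of the 41 were called, where 0.0297% of all features rose and 0.126% fell. At 2-fold on FPKM + 1, 3 genes were higher in KO refed than in KO mock (2.36% of all features) and 5 in WT (1.89%), and none was lower (0.944% in KO and 4.21% in WT). At 1.5-fold the higher genes were 12 in KO (6.70%) and 11 in WT (4.33%).

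KO cells were compared with WT cells to describe replication genes without KDM3A. On the deposited scale the licensing factors CDC6 and CDT1, the primase subunit PRIM1 and POLD1 were higher in KO in all 3 states, and their rises were also called under both rescalings. CDC6 had log2 0.64 (SE 0.08, limma adjusted p = 0.0103) and CDT1 log2 0.63 (SE 0.07, limma adjusted p = 0.00929). For CDT1 the lowest KO value, 43.1 FPKM in mock, lay above the highest WT value, 36.1 FPKM in starved cells. For CDC6 all 3 KO values lay above all 3 WT values as well. Both separations hold on the deposited scale only. Median-ratio rescaling divides KO mock by 1.10, WT starved by 0.892 and WT refed by 0.876. KO mock then lies below WT starved for CDT1 and below WT refed for CDC6.

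PRIM1, the catalytic primase subunit, was at 24.7, 24.7 and 21.1 FPKM in mock, starved and refed KO cells, against 16.6, 14.6 and 13.8 FPKM in WT (log2 0.62, SE 0.06, limma adjusted p = 0.00813). POLD1, whose levels are given above, had log2 0.50 (SE 0.06, limma adjusted p = 0.00886). In both genes the genotypes did not overlap on the deposited scale. The share of all features that separate in this way was not counted. On that scale 54.3% of all features were higher in KO in all 3 states. After median-ratio rescaling the differences were 0.43 for PRIM1, 0.31 for POLD1, 0.45 for CDC6 and 0.43 for CDT1. RFC5, another small loader subunit, was at 28.1, 27.3 and 24.8 FPKM in KO and 21.3, 17.8 and 18.3 FPKM in WT, and was called as deposited (log2 0.46) and after median-ratio rescaling (0.27) but not after upper-quartile rescaling.

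Over the module, 20 of 41 genes rose in KO (48.8%) and 0 fell on the deposited scale, where 28.7% of all features rose and 4.58% fell. The median was 0.26, against 0.16 for all features. After median-ratio rescaling 5 rose (12.2%) and 0 fell, where 12.0% of all features rose and 11.2% fell, and after upper-quartile rescaling 4 rose and RPA2 fell, where 10.8% of all features rose and 12.7% fell. After either rescaling the share that rose is thus near that of all features, and the share that fell is below it. Without WT mock CDC6, CDT1, PRIM1 and POLD1 kept their calls, with limma adjusted p of 0.0227, 0.0223, 0.0227 and 0.0229. Without it 17 of the 41 rose, where 37.4% of all features rose and 5.01% fell.

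MCM2, MCM4 and CDC45 illustrate the calls that the scale decides. MCM2 was higher in KO by 0.78, 0.48 and 0.40 on the log2 scale in mock, starved and refed cells (averaged 0.55, SE 0.10, limma adjusted p = 0.0192). The mock difference, the largest, uses the WT mock value. CDC45 averaged 0.54 (SE 0.07, limma adjusted p = 0.0106) and MCM4 0.44. After median-ratio rescaling the adjusted p by limma was 0.110 for MCM2, 0.0541 for CDC45 and 0.123 for MCM4, with differences of 0.36, 0.36 and 0.25. The other subunits of the ring did not pass on the deposited scale.

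By level, 35 of the 41 genes were higher in KO in all 3 states on the deposited scale (85.4%, against 54.3% of all features) and 0 lower. After median-ratio rescaling 16 were higher and 10 lower in all 3 states (39.0% and 24.4%, against 31.1% and 32.3% of all features), and the averaged differences of 14 genes that were positive as deposited turned negative. These were MCM3, MCM5, MCM6, MCM7, ORC2, ORC5, GINS4, RFC4, POLA2, LIG1, RPA1, RPA2, RRM2 and UNG. On FPKM + 1 no gene was 2-fold different between KO and WT in any state, where 2.27%, 2.59% and 3.41% of all features were 2-fold higher and 3.22%, 1.46% and 1.51% lower in mock, starved and refed cells. At 1.5-fold on FPKM + 1, 5 genes were higher in mock (5.92% of all features), 2 in starved (8.45%) and 1 in refed cells (11.6%).

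**Figure D5:**
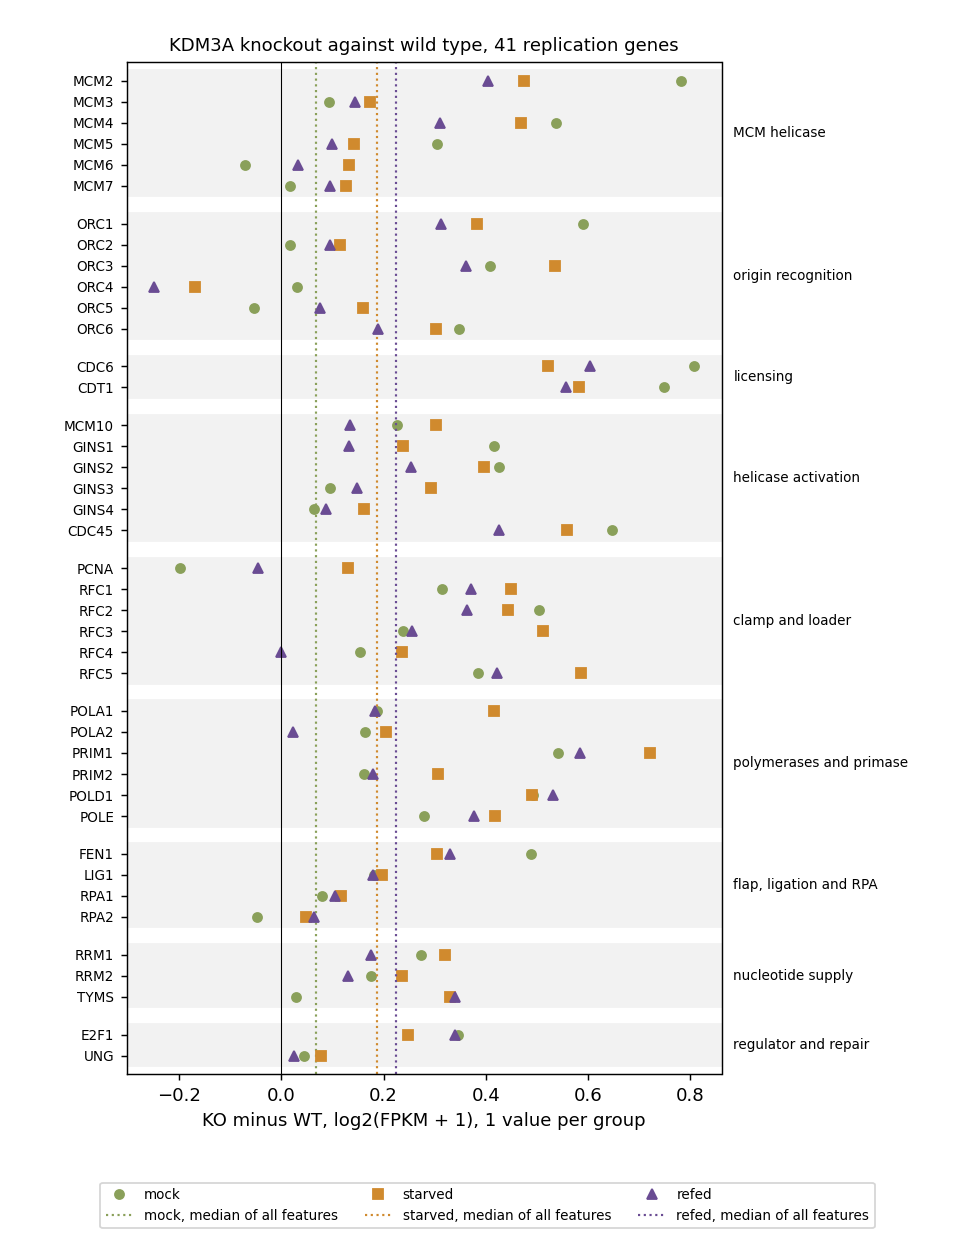
KO minus WT difference of log2(FPKM + 1) (horizontal axis) for each of the 41 genes in mock (circles), starved (squares) and refed cells (triangles), 1 value per group, with dotted lines at the median of all features in each state (0.07, 0.19 and 0.22). CDC6, CDT1 and PRIM1 lie to the right of all 3 lines in every state, whereas MCM6, ORC4, ORC5, PCNA, RFC4 and RPA2 have values on both sides of 0.

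A list of 51 other replication genes was read beside the module. In starved cells 7 rose (13.7%) and 6 fell (11.8%), where 5.83% of all features rose and 19.4% fell. CCNE2, a cyclin of the G1 to S transition, rose (log2 0.71, limma adjusted p = 0.0215), at 1.65, 2.90 and 3.49 FPKM in mock, starved and refed KO cells and at 1.53, 3.60 and 4.28 FPKM in WT. CDC25A, the phosphatase that activates its kinase, rose by log2 0.61. DBF4, the activator of the origin-firing kinase CDC7, fell (log2 -0.70, limma adjusted p = 0.0177), at 9.05, 5.68 and 4.89 FPKM in KO and 7.41, 3.78 and 3.89 FPKM in WT. RRM2B, the p53-induced ribonucleotide reductase subunit, fell as well (log2 -0.60).

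After median-ratio rescaling 23 of the 51 rose and 3 fell in starved cells, where 15.0% of all features rose and 14.9% fell. In refed against mock cells 13 rose and 5 fell, where 8.10% of all features rose and 21.2% fell. The rises were led by CDC25A (log2 1.08), CCNE2 (0.91), CCNE1 (0.86) and CTPS1 (0.78), which makes CTP. In KO against WT 20 rose (39.2%) and 0 fell, where 28.7% of all features rose and 4.58% fell. After median-ratio rescaling 5 rose and 2 fell, where 12.0% of all features rose and 11.2% fell. POLD2, the partner subunit of POLD1, was at 125, 146 and 144 FPKM in mock, starved and refed KO cells, against 79.7, 91.9 and 89.7 FPKM in WT (log2 0.66, SE 0.06, limma adjusted p = 0.00724). The helicase gene RECQL4 and the RPA subunit RPA3 had log2 0.52 and 0.48, and both kept their calls after median-ratio rescaling. CCNE1 had log2 0.55, made up of 0.27, 0.44 and 0.94 in mock, starved and refed cells, and lost its call after that rescaling (limma adjusted p = 0.0896). Without WT mock 0 of the 51 were called in starved or refed against mock cells, and 22 rose and 1 fell in KO. Of all features 37.4% rose and 5.01% fell in KO in that fit.

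Mitosis genes had the opposite sign to the helicase in the same cells. Of 20 such genes 0 rose and 16 fell in starved cells with a median of log2 -0.84, where 19.4% of all features fell. In refed against mock cells 0 rose and 16 fell as well, where 21.2% of all features fell. Without WT mock 0 of the 20 were called in either comparison, where 0.134% and 0.126% of all features fell. Their median for starved minus mock was -0.54 in KO and -1.13 in WT, where the WT value uses WT mock. The difference between genotypes was not tested.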

How the data were processed

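Per the labels' protocols, polyadenylated RNA of HCT116 cells was sequenced. Per the submitters' processing notes, reads were checked with FastQC, trimmed with cutadapt and aligned with TopHat2 to hg19, versions not recorded. How FPKM were computed, and with which annotation, is not given in the sources used here. The authors deposited FPKM per gene symbol in 6 tables of 1 column each, named for the group and not for a replicate. Read depth is unknown, so no counting interval can be given.

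The 13456 features that reached 1 FPKM in any group were compared on log2(FPKM + 1), a scale that understates changes of low genes. R 4.3.3 with limma 3.58.1 fitted genotype and state as additive terms with a variance trend, tested on simulated data. Python 3.11.15 with pandas 2.3.3 built the tables. Median-ratio factors were 0.876 to 1.10. The share of all features called was computed for each comparison. The 41 members, the lists and the comparisons were chosen with earlier results of these data known. Named were the MCM ring, the leading members of each role by starved minus mock difference, the 5 largest calls per averaged comparison, and up to 4 genes from the list of others. Promoter sequences are from RefSeq (GRCh38.p14). In that table's assembly 8 members overlap another coding gene and 9 have pseudogenes named after them. Counting by strand is not stated, so reads of overlapping genes cannot be told apart.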

Additional observations from a re-analysis of the deposited data

Results flagged for a closer look

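In starved against mock cells 5 genes had opposite signs in the 2 genotypes, each from 1 value per group, and the difference was not tested. The KO response minus the WT response was -0.21 for ORC1 (KO -0.17, WT 0.04), -0.20 for ORC4 (KO -0.08, WT 0.12), 0.10 for GINS4 (KO 0.08, WT -0.02), 0.18 for PRIM1 (KO 0.00388, WT -0.18) and 0.30 for TYMS (KO 0.22, WT -0.08), all on the log2 scale. TYMS was at 49.4 FPKM in KO starved and 42.3 FPKM in KO mock, and at 39.2 FPKM in WT starved and 41.4 FPKM in WT mock.

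For KO against WT, 6 genes were higher in KO in some states and lower in others, again without a test. The highest minus the lowest of the 3 differences was 0.33 for PCNA, 0.28 for ORC4, 0.24 for RFC4, 0.21 for ORC5, 0.20 for MCM6 and 0.11 for RPA2. PCNA was lower in KO mock (58.0 FPKM, against 66.7 FPKM in WT mock) and higher in KO starved (102 FPKM, against 93.1 FPKM in WT starved).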

How the results depend on the processing

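No called difference of a named member changed sign under any of the 13 alternatives. Pseudocounts of 0.1 and 0.5, a filter of 5 FPKM and leaving out features 4-fold higher in WT mock with short RNA kept all counts of members within 1.5 times. KO against WT had 20 genes risen as deposited, 5 with median-ratio rescaling, 4 with upper-quartile rescaling and 2 with no filter on low values; 1 fell after upper-quartile rescaling. Starved against mock had 3 fallen as deposited and 1 after either rescaling. With no filter 0 rose and 0 fell in starved and in refed against mock. Leaving out 1 group leaves 1 residual degree of freedom: members that rose were then 0 to 17 in KO against WT, 0 to 15 in starved and 0 to 18 in refed against mock, and those that fell 0 to 1 in starved and 0 to 2 in refed against mock. The high ends came without KO mock, or for KO against WT also without WT mock; without any starved or refed group each count was 0. A lone group is then assumed to vary like the others. At 1.5-fold in place of 2-fold (on FPKM + 1), higher members were 5, 2 and 1 for KO against WT in mock, starved and refed cells, 10 (KO) and 8 (WT) in starved against mock, and 12 (KO) and 11 (WT) in refed against mock. No paired analysis was possible because the columns carry no replicate number. The cause of these changes was not tested. Unknown depth limits all values.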
